A study of Mus musculus with 10 samples.

Results

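Potassium channel subunits were examined as a gene family in luminal and basal cells of the mouse mammary gland. The family was taken as every gene of the count table whose mouse symbol had the form Kcn, a subfamily letter or letters, a number and at most 1 further letter, without antisense transcripts. This rule found 93 genes among the 24594 in the table, and 38 of them had enough counts to be tested, out of 14609 genes tested in all. The study compared luminal with basal epithelial cells that were freshly isolated from the virgin mammary gland of wild-type C57BL/6J mice and sorted by the surface proteins EpCAM and CD49f. RNA of each sorted population was sequenced in bulk, in 5 luminal and 5 basal libraries, with no treatment and no age given in the labels. Libraries were assigned by the cell type label, which the source name and a letter B or L in the description follow, although each of the 10 titles names the other cell type.

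Potassium channels let potassium leave or enter a cell and so set its resting membrane potential. In secretory epithelia the driving force that they provide carries chloride and fluid across the cell, and in contractile cells they limit calcium entry and thereby contraction. Pore-forming alpha subunits assemble with auxiliary subunits that tune gating or trafficking, so that the same pore can behave differently in cells with different partners. The mammary duct has an inner layer of luminal cells, which can become milk secreting, and an outer layer of basal cells, which are contractile.

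The libraries held 13203146 to 17998165 counts, and 1 count corresponded to 0.0527 to 0.0774 CPM (counts scaled to a common library size). All 16 lineage markers examined, among them Krt8 and Elf5 for luminal cells and Krt14, Trp63 and Acta2 for basal cells, were higher in the cell type of the label. Basal marker levels in the luminal libraries were 0.0856% to 1.1% of the basal mean. Luminal markers in the basal libraries ranged more widely, from 0% to 26.7% of the luminal mean. Krt8 was at 429 to 627 CPM there. Elf5 had at most 0.499 CPM and Prlr at most 2.19 CPM in basal libraries, beside luminal means of 92.0 and 1190 CPM. The part of luminal cells in the basal levels of members seen in both cell types was not tested. Among markers of other cell types, Acta1 of the skeletal muscle list had 67.4 to 131 CPM in basal and 0.229 to 1.75 CPM in luminal libraries, while Ckm of that list lay the other way, at 0.438 to 3.07 CPM in luminal and at most 0.436 CPM in basal libraries. Ckm and Myh4, the latter near 0 in both, did not pass the filter and were not tested. Fibroblast markers summed to 17.8 to 107 CPM in luminal and 22.8 to 36.3 CPM in basal libraries, Hba-a1 of red cells had 3.37 to 15.9 CPM in luminal and at most 0.188 CPM in basal libraries, and fat cell markers summed to at most 1.06 CPM. The labels do not say which animal each library came from, so p-values measure the spread between these libraries. A luminal and a basal library share each number that opens the descriptions, and whether it stands for an animal is not stated. In bulk RNA, more cells of a kind within a sort and more RNA per cell cannot be told apart.

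Called members were found in each of the 10 subunit classes, and they went in both directions. Of the 38 members tested, 17 were higher in luminal cells (44.7%, against 33.6% of all genes tested), among them Kcnh2, Kcnn4, Kcne3, Kcnj11 and Kcnk5. A further 10 were higher in basal cells (26.3%, against 31.2%), led by Kcnmb1, Kcna6, Kcnj2 and Kcnj8, and 11 passed the test in neither direction. At least 2-fold differences were seen in 15 members toward luminal cells (39.5%, against 20.9% of all genes tested) and in 9 toward basal cells (23.7%, against 19.1%). The 5 luminal values lay above all 5 basal values in 14 members (36.8%, against 24.7%) and below them in 9 (23.7%, against 25.3%). The median absolute log2 fold change was 1.94 over the members tested and 0.81 over all genes tested. Calls are from edgeR's quasi-likelihood test with Benjamini-Hochberg adjustment over all genes tested, at an adjusted p under 0.05. These shares have a built-in tilt, because 20 of the 38 members passed the count filter through the libraries of 1 cell type alone.

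**Figure D1:**
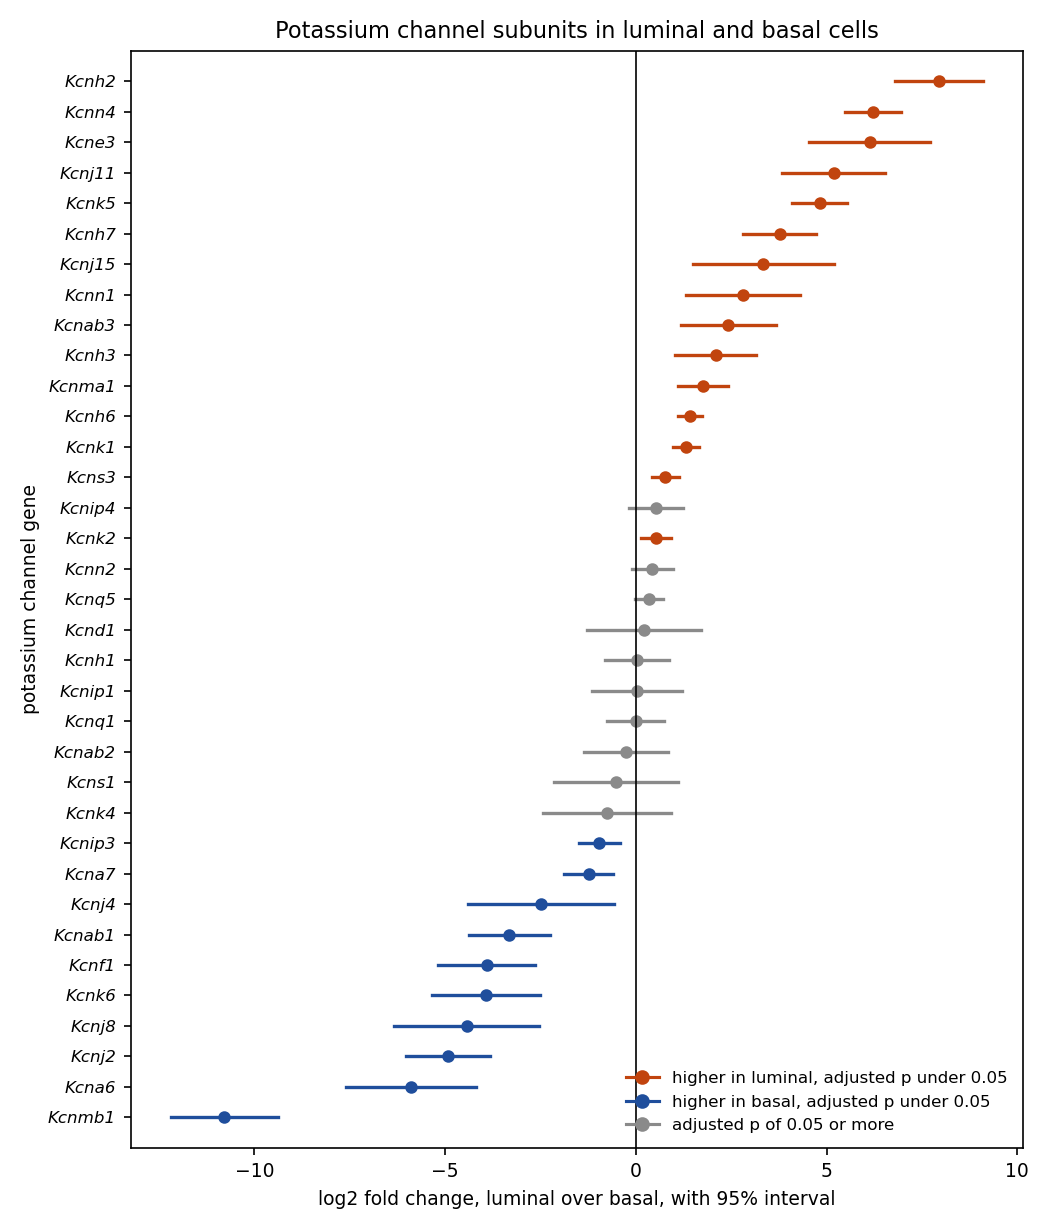
Log2 fold change of luminal over basal cells (horizontal axis) for 35 of the 38 tested potassium channel genes, with 95% intervals from edgeR's quasi-likelihood fit. Red genes were higher in luminal cells (15), blue genes higher in basal cells (10) and grey genes were not called (10). Kcnh2 at 7.94 and Kcnmb1 at -10.79 are the extremes.

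The subunits of the large-conductance calcium-activated channel, known as BK, were split between the cell types. Kcnma1 forms its pore and calcium sensor, Kcnmb1 is the beta subunit known from smooth muscle, where it raises calcium sensitivity, and Lrrc26 is a gamma subunit of secretory epithelia that lets the channel open without a calcium rise. The pore gene and the gamma subunit were higher in luminal cells, and the beta subunit was found in basal cells. Kcnmb1 (chr11:33962955-33973641, plus strand, GRCm38.p6) had 16.6, 18.7, 16.1, 7.56 and 11.6 CPM in the 5 basal libraries and no count in any luminal library. Its basal total of 1063 counts was at least 302-fold higher by the lower 95% counting limit, and 372-fold above the floor of 3 counts over the luminal group (adjusted p = 1.17e-07, edgeR's quasi-likelihood test with Benjamini-Hochberg adjustment, the test behind every adjusted p given here). Its fitted log2 fold change of -10.79 depends on the prior count and is no bound. Kcnma1 (chr14:23292288-24005110, minus strand) had 9.57, 7.74, 14.97, 14.7 and 12.4 CPM in luminal and 4.80, 4.43, 3.33, 1.44 and 3.48 CPM in basal libraries. The groups did not overlap, at a log2 fold change of 1.76 ± 0.31 (SE, adjusted p = 0.000184). Lrrc26 had 4.63, 6.53, 5.28, 6.03 and 5.27 CPM in luminal libraries and no count in any basal library, at least 115-fold higher by the same limit and 142-fold above the floor of 3 counts over the basal group (adjusted p = 3.47e-07). None of the other BK partners reached the test: Kcnmb2, Kcnmb3 and Kcnmb4 had group means of at most 0.247 CPM, and the gamma subunits Lrrc38, Lrrc52 and Lrrc55 at most 0.519 CPM. Without the filter on low counts, Kcnmb4 was called toward basal cells (1 luminal and 19 basal counts, adjusted p = 0.0278). Basal cells thus had the pore transcript with a beta partner and luminal cells had it with a gamma partner, as far as the means of these libraries show. Per length of exon, Kcnmb1 stood at 3.37 ± 1.07 CPM per kb in basal cells, beside 0.271 ± 0.101 for Kcnma1 (SD, n = 5). Kcnmb1 lies inside the span of Kcnip1 on the opposite strand without sharing exon bases, and 1016 exon bases of Kcnma1 face the transcript 4930519K11Rik, whose reads cannot be told apart from its own in libraries made without strand information.

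The bases just upstream of Kcnmb1 and Lrrc26 are shown because these partners were each counted in only 1 cell type. They are the 100 bases before the outermost RefSeq start (GRCm38.p6, 5′ to 3′ along the gene), with CG dinucleotides in capitals.
Kcnmb1 (chr11:33962855-33962954, plus strand): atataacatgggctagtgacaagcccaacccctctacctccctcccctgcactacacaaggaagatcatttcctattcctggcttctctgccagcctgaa
Lrrc26 (chr2:25289811-25289910, plus strand): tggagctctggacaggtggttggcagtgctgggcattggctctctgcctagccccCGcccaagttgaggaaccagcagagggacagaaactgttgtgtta
The whole promoter window of RefSeq, 250 bases before to 50 after the start, held 1 CG in Kcnmb1 and 3 in Lrrc26, where the median of all 32851 windows was 7. Both windows thus held fewer CG than the median, although the genes were called in opposite directions.

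Channels that close when ATP is high showed a second split (the ATP-sensitive or KATP channels, built of a Kcnj8 or Kcnj11 pore and a sulfonylurea receptor). Luminal cells had Kcnj11 together with its receptor gene Abcc8, and basal cells had low levels of Kcnj8. Kcnj11 (chr7:46097123-46100952, minus strand) had 11.4, 4.79, 11.5, 7.94 and 17.3 CPM in luminal libraries and 0.499, 0.205, 0, 0 and 0.659 CPM in basal libraries. Abcc8 had 33.7, 16.9, 30.5, 52.5 and 39.3 CPM in luminal libraries and at most 0.180 CPM in basal ones. Neither gene overlapped between the groups, with a log2 fold change of 5.18 ± 0.63 (SE) for Kcnj11 (adjusted p = 5.98e-06) and 9.16 ± 0.53 for Abcc8 (adjusted p = 2.99e-09). Without basal replicate 5 these were 5.80 and 10.4. Kcnj8 (chr6:142564837-142571614, minus strand) had 4.49, 1.23, 1.78, 2.06 and 2.04 CPM in basal libraries. Only 1 luminal library had any Kcnj8 count, replicate 3 at 0.491 CPM, and the ratio of basal to luminal was 23.6 (95% counting interval 11.7 to 55.6, log2 fold change -4.44 ± 0.89, adjusted p = 0.000532). Without that library the luminal group is at 0 and the fitted value is -8.19. Abcc9, the receptor that pairs with Kcnj8 in vascular muscle, was not tested, with means of 0.111 CPM in luminal and 0.264 CPM in basal libraries. Kcnj8 is also a known pericyte gene. Of the 6 pericyte and vascular muscle markers examined, Rgs5, Cspg4, Pdgfrb and Des were higher in basal cells, Notch3 was higher in luminal cells, and Higd1b was at 0 in all 10 libraries. The summed level of all 6 was 39.7 to 64.3 CPM in basal and 94.9 to 269 CPM in luminal libraries. Without Notch3, it was 33.4 to 57.6 CPM in basal and 0 to 1.78 CPM in luminal libraries. The luminal library with Kcnj8 counts was also the only luminal library with any Rgs5, at 0.797 CPM. The summed level of 5 endothelial markers was 9.44 to 16.2 CPM in basal and 2.58 to 6.72 CPM in luminal libraries. The paper's sorting protocol also stained cells with lineage antibodies, including anti-CD31. The part of vascular cells in the differences of Kcnj8, or of Kcnmb1, which vascular muscle also expresses, was not tested.

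**Figure D2:**
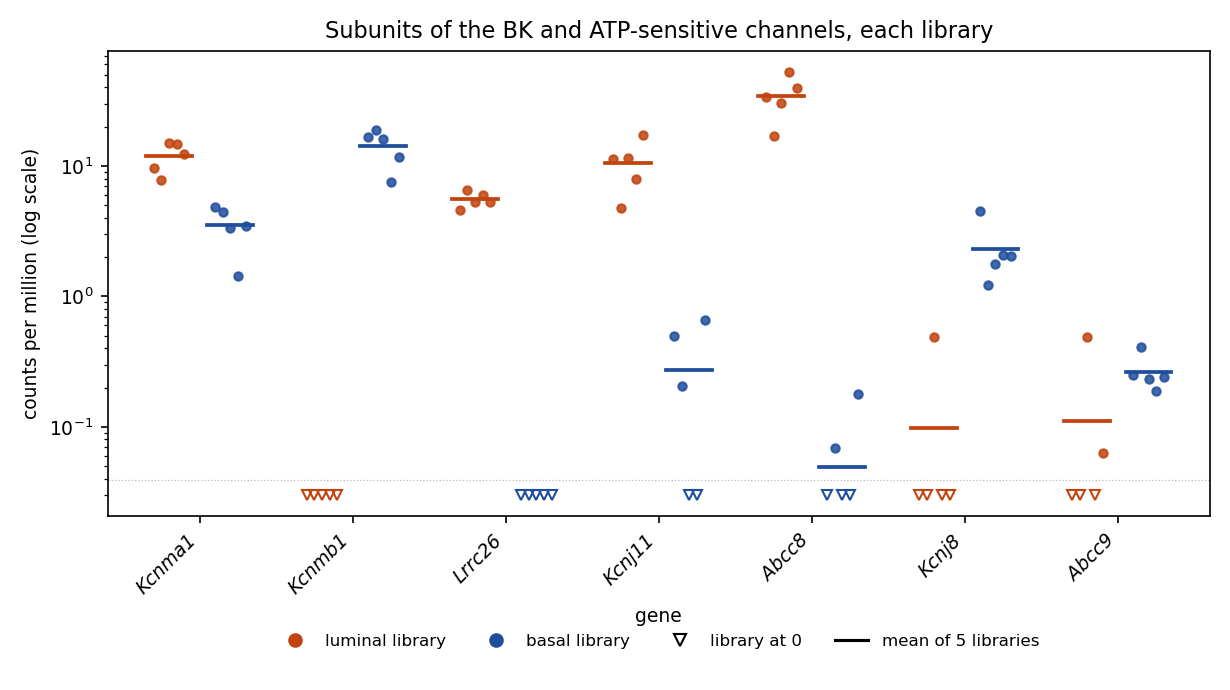
CPM (vertical axis, log scale) of 3 BK and 4 KATP channel genes in each luminal (red) and basal (blue) library, with horizontal bars for the mean of 5 libraries and open triangles for libraries at 0. Kcnmb1 is at 0 in all luminal libraries and Lrrc26 in all basal ones, and Kcnj11 and Abcc8 lie on the luminal side while Kcnj8 lies on the basal side.

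Among the other inward rectifiers, which pass potassium inward more easily than outward and hold the resting potential, Kcnj2 had the highest level per length, at 4.4 CPM per kb in basal cells. It codes for a classical strong rectifier of muscle. Kcnj2 (chr11:111066164-111076825, plus strand) had 15.5, 32.5, 29.3, 23.6 and 18.8 CPM in basal and 1.06, 0.369, 1.78, 0 and 0.634 CPM in luminal libraries. The groups were far apart, with a log2 fold change of -4.93 ± 0.51 (SE, adjusted p = 1.12e-06). Kcnj4, another strong rectifier, was also higher in basal cells, at 1.65 ± 1.01 against 0.306 ± 0.481 CPM (SD, n = 5, log2 fold change -2.48, adjusted p = 0.0247), but its groups overlapped and the call was lost without luminal replicate 2 or 3, or without basal replicate 2 or 4 (adjusted p = 0.0534 to 0.0573). Without luminal replicate 4 the log2 fold change was -3.92 (adjusted p = 0.00144). Kcnj15, a rectifier of kidney and secretory epithelia, went the other way, with 0.737 to 2.51 CPM in luminal libraries. Of its 11 basal counts, 10 were in replicate 4, and the log2 fold change was 3.35 ± 0.87 with all libraries (adjusted p = 0.00371) and 5.95 without basal replicate 4 (adjusted p = 6.13e-05). Of the 15 inward rectifier genes, 10 were not tested.

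K2P channels, whose subunits each carry a pair of pore loops, conduct the background leak of many epithelia. They made the largest part of the family's RNA in luminal cells, with 41.2% of the length-scaled level of all members, against 25.2% in basal cells. Kcnk1, a weakly rectifying leak channel, had the highest mean level per length in luminal cells, with 115, 96.5, 95.8, 87.7 and 137 CPM there and 38.0, 41.5, 55.0, 41.1 and 37.9 CPM in basal libraries. It was thus present in both cell types, without overlap between them, with a log2 fold change of 1.32 ± 0.16 (SE, adjusted p = 5.08e-06). Kcnk5, an alkali-sensitive leak channel of transporting epithelia, had 79.5, 45.1, 41.7, 29.9 and 70.3 CPM in luminal and 2.93, 2.32, 1.01, 1.5 and 1.56 CPM in basal libraries. Unlike Kcnk1 it was low in basal cells, with a log2 fold change of 4.82 ± 0.34 (adjusted p = 1.93e-08). Kcnk6, a close relative of Kcnk1, was found on the basal side. It had 1.43, 1.02, 0.929, 1.88 and 1.74 CPM in basal and at most 0.211 CPM in luminal libraries, on 109 and 7 counts (ratio 16.4, 95% counting interval 7.67 to 41.6, adjusted p = 0.000125). Its log2 fold change was -3.92, and -4.62 without luminal replicate 2. Kcnk2, a stretch-sensitive leak channel, differed least of the called members, at 54.1 ± 9.12 CPM in luminal and 37.4 ± 10.1 CPM in basal libraries (SD, n = 5, log2 fold change 0.53, adjusted p = 0.0198). Its basal replicate 4, at 55.5 CPM, lay among the luminal values, and the call was lost without basal replicate 1 or 2 (adjusted p = 0.0523 and 0.0556).

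Of the 8 members of the EAG family, 5 were tested and 4 were higher in luminal cells, beside 33.6% of all genes tested. Kcnh2, Kcnh3 and Kcnh7 passed the filter on low counts through the luminal libraries alone, so that their count says nothing about the family. These voltage-gated channels include the ERG genes Kcnh2, Kcnh6 and Kcnh7, of which Kcnh2 repolarizes the heart. Kcnh2 (chr5:24319589-24351684, minus strand) had 32.6, 12.7, 19.6, 11.8 and 13.8 CPM in luminal libraries and 0.125, 0.136, 0.0774, 0 and 0 CPM in basal ones. On 1455 against 5 counts the ratio was 277 (95% counting interval 118 to 855), with a log2 fold change of 7.94 ± 0.54 (SE, adjusted p = 1.44e-08). Kcnh6 was at 31.6 ± 3.32 CPM in luminal and 11.8 ± 1.58 CPM in basal libraries (SD, n = 5). It varied little between libraries, and its log2 fold change of 1.42 ± 0.15 had an adjusted p of 1.42e-06. Kcnh7 had 4.75 to 7.33 CPM in luminal and 0.125 to 0.875 CPM in basal libraries (log2 fold change 3.78, adjusted p = 4.27e-06). However, 696 of its exon bases lie opposite exons of Gca, which was itself higher in luminal cells at 14.9 against 0.779 CPM, and reads of the pair cannot be told apart by strand. Kcnh3, a brain channel of the ELK branch, was at 3.75 ± 2.27 against 0.870 ± 0.398 CPM (log2 fold change 2.09, adjusted p = 0.00209), although its lowest luminal library, at 1.07 CPM, lay below its highest basal one, at 1.37 CPM. Kcnh1 was near equal in the means, at 39.7 ± 23.6 and 38.6 ± 13.5 CPM. Its log2 difference of 0.04 had a 95% interval of -0.80 to 0.88.

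Of the 4 small- and intermediate-conductance calcium-activated channel genes, 3 were tested and 2, Kcnn4 and Kcnn1, were higher in luminal cells (33.6% of all genes tested), both of which passed the filter through luminal libraries alone. Kcnn4, the intermediate-conductance channel that drives secretion in salivary and intestinal epithelia, had 24.5, 15.01, 21.4, 18.2 and 31.3 CPM in luminal libraries and 0.499, 0.136, 0.232, 0.375 and 0.180 CPM in basal ones. With 1758 against 22 counts it was 76.1 times as abundant (95% counting interval 50.1 to 122), at a log2 fold change of 6.22 ± 0.34 (SE, adjusted p = 2.07e-09). Kcnn1, a small-conductance channel best known from neurons, had 1.69 to 5.04 CPM in luminal and 0 to 1.13 CPM in basal libraries (log2 fold change 2.80, adjusted p = 0.00279, and 3.56 without basal replicate 4). Kcnn2, its relative, was higher in all 5 luminal libraries than in the basal library of the same number, at 4.2 ± 0.733 against 3.11 ± 0.220 CPM (SD, n = 5), but did not pass the test (adjusted p = 0.147), except when scaled by library totals alone (log2 difference 0.62, adjusted p = 0.0486).

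Classical voltage-gated alpha subunits, which open on depolarization, included Kcna6 and Kcna7 of the shaker branch, which were higher in basal cells. Kcna6 had 5.30, 9.28, 9.83, 7.44 and 3.90 CPM in basal libraries, and luminal replicate 5 was the only luminal library with any count, at 0.571 CPM. The ratio was 62.1 (95% counting interval 32.5 to 137, log2 fold change -5.88 ± 0.80 (SE), adjusted p = 1.61e-05). Without that library the luminal group is at 0 and the fitted value is -9.80. Its exons face 2355 bases of the antisense gene Gm26673, which limits the assignment of these reads. Kcna7, known from muscle, was moderately higher in basal cells, at 9.69 ± 1.98 against 4.14 ± 1.81 CPM (SD, n = 5, log2 fold change -1.23, adjusted p = 0.00243). Electrically silent subunits, which form no channel alone and modify other voltage-gated channels, divided as well. Kcnf1 had 25.5, 13.7, 9.05, 6.50 and 12.6 CPM in basal and 1.501, 1.42, 1.17, 0 and 0.254 CPM in luminal libraries. The groups did not overlap (log2 fold change -3.91 ± 0.59, adjusted p = 4.98e-05). Kcns3 was found in both cell types, at 35.6 ± 6.62 CPM in luminal and 20.8 ± 2.40 CPM in basal libraries, without overlap (log2 fold change 0.78 ± 0.16, adjusted p = 0.000694).

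Of the 12 auxiliary subunit genes, 7 were tested, of which 2 were higher in luminal cells, 2 were higher in basal cells and 3 were not called, close to the 33.6% and 31.2% of all genes tested. Without the filter on low counts, where 24.1% and 24.7% of 20612 genes were called toward luminal and basal cells, Kcne4 was called toward basal cells (0 counts in luminal and 21 in basal libraries, adjusted p = 0.008) and Kcnip2 toward luminal cells (61 and 8 counts, adjusted p = 0.029). Kcne3 is a membrane-spanning partner that holds Kcnq1 channels open in intestinal and airway epithelia. It had 4.32, 6.27, 18.5, 6.11 and 5.14 CPM in luminal and 0, 0.0682, 0.464, 0 and 0.0599 CPM in basal libraries. Luminal replicate 3 stood far above the other luminal libraries, and basal replicate 3 above the other basal ones. The ratio over all libraries was 77.4 (95% counting interval 39.0 to 180), with a log2 fold change of 6.13 ± 0.74 (SE, adjusted p = 5.61e-06), which was 5.54 without luminal replicate 3 and 7.69 without basal replicate 3. Kcnq1, the pore that Kcne3 modifies, did not follow it, at 18.5 ± 9.90 CPM in luminal and 18.5 ± 7.92 CPM in basal libraries (SD, n = 5, 95% interval of the log2 difference -0.75 to 0.74). The cytoplasmic beta subunits of shaker channels moved apart. Kcnab1 had 21.8, 8.87, 14.5, 10.7 and 12.9 CPM in basal and 0.381 to 3.07 CPM in luminal libraries (log2 fold change -3.31 ± 0.49, adjusted p = 3.81e-05), and Kcnab3 was at 2.66 ± 1.19 CPM in luminal against 0.488 ± 0.391 CPM in basal libraries (log2 fold change 2.42, adjusted p = 0.00215). Antisense transcripts share 118 exon bases with Kcnab1 and 147 with Kcnab3. Kcnip3, a calcium-binding partner of Kv4 channels that is also a transcriptional repressor, was at 13.8 ± 2.04 CPM in basal and 7.14 ± 2.71 CPM in luminal libraries (log2 fold change -0.95, adjusted p = 0.00418).

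**Figure D3:**
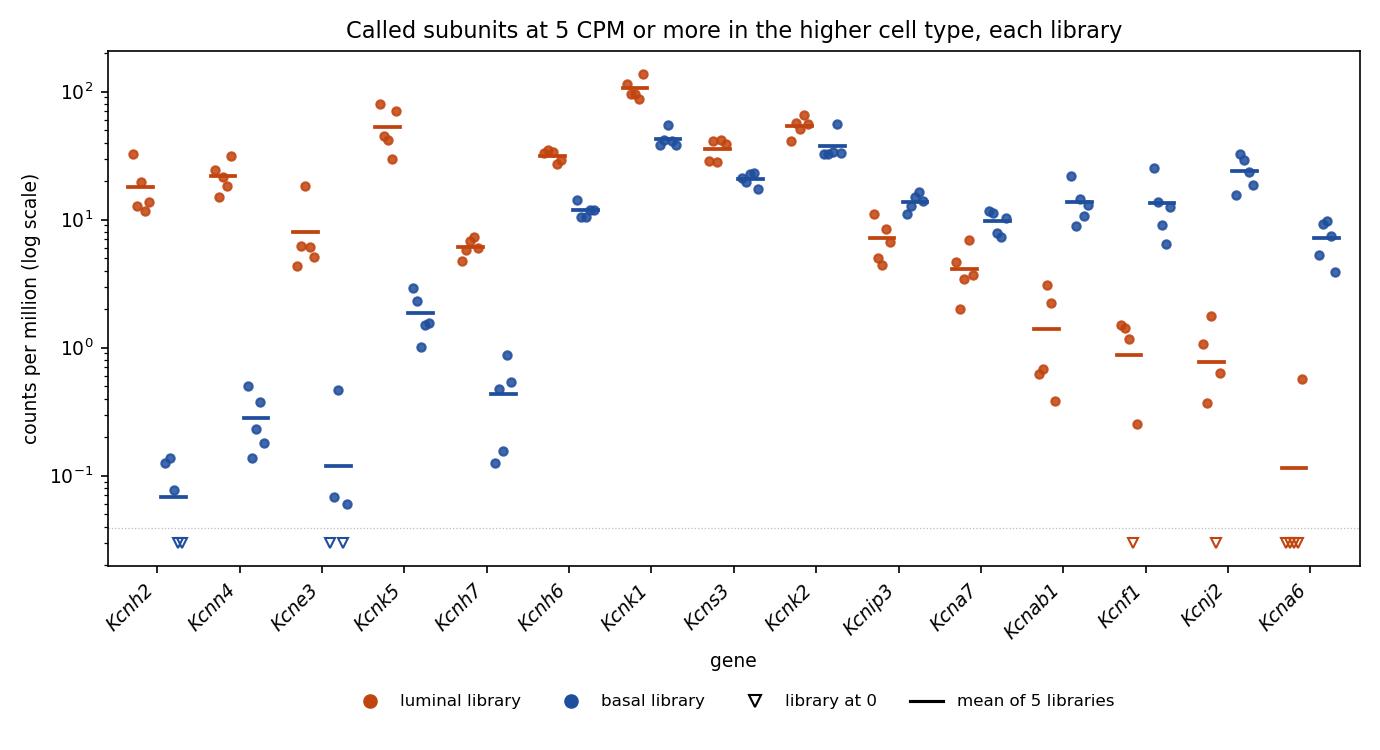
CPM (vertical axis, log scale) in each luminal (red) and basal (blue) library for 15 called potassium channel genes that averaged 5 CPM or more in the higher cell type, ordered from luminal to basal, where bars are means of 5 libraries and open triangles are libraries at 0. Kcnk1, Kcns3, Kcnk2, Kcnh6, Kcnip3 and Kcna7 are well above 0 in both cell types, whereas Kcnh2, Kcnn4, Kcne3 and Kcna6 fall close to 0 in the other cell type.

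The basal-called members differed in how far they fell in luminal cells. The luminal mean was 0% of the basal mean for Kcnmb1, 1.6% for Kcna6, 3.21% for Kcnj2, 4.23% for Kcnj8, 5.66% for Kcnk6 and 6.45% for Kcnf1. It was 10.1% for Kcnab1, 18.5% for Kcnj4, 42.7% for Kcna7 and 51.7% for Kcnip3. The shares of Kcna6 and Kcnj8 each came from 1 luminal library, replicate 5 and replicate 3, and the other 4 were at 0. Of the 22 luminal counts of Kcnj4, 15 were in luminal replicate 4, and its share was 5.84% without that library. Kcnk6 had 7 luminal counts, and its share was 3.31% without luminal replicate 2. The basal lineage markers were at 0.0856% to 1.1%.

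KCNQ channels are slow, low-threshold channels, and Kcnq5 had the highest mean level per length in basal cells. It had 146, 212, 177, 288 and 207 CPM in luminal and 179, 147, 150, 179 and 151 CPM in basal libraries, which overlapped. Its log2 difference of 0.35 had a 95% interval of -0.01 to 0.71 and did not pass the test (adjusted p = 0.0829), but it passed with upper-quartile scaling (0.48, adjusted p = 0.0257), with library totals alone (0.53, adjusted p = 0.00833) and without luminal replicate 1 (0.47, adjusted p = 0.0183).

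Scaled by exon length, a few genes carried most of the family's RNA. In luminal cells the highest means were 47.6 ± 8.83 CPM per kb for Kcnk1, 29.5 ± 7.56 for Kcnq5, 15.7 ± 6.12 for Kcnk5, 12.9 ± 2.18 for Kcnk2, 11.3 ± 2.09 for Kcns3 and 10.9 ± 3.09 for Kcnn4 (SD, n = 5). Together these 6 made 67.4% ± 5.61 of the summed length-scaled level of all members. In basal cells the order began with Kcnq5 at 23.1 ± 2.36 CPM per kb and Kcnk1 at 19.1 ± 3.17, followed by Kcnip1 at 10.4 ± 1.57, Kcnk2 at 8.91 ± 2.41, Kcns3 at 6.57 ± 0.759 and Kcnq1 at 6.11 ± 2.62. These 6 made 62.3% ± 2.36. Kcnk1 and Kcnq5 in basal cells had overlapping ranges, 17.0 to 24.6 and 21.0 to 25.7 CPM per kb, as did Kcnk5, Kcnk2, Kcns3 and Kcnn4 in luminal cells. In luminal cells Kcnk1 at 39.3 to 61.2 and Kcnq5 at 21.0 to 41.2 CPM per kb overlapped too, and Kcnq5 was above Kcnk1 in luminal replicate 4. The summed level of all 93 members was 168 to 216 CPM per kb in luminal and 110 to 126 CPM per kb in basal libraries.

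**Figure D4:**
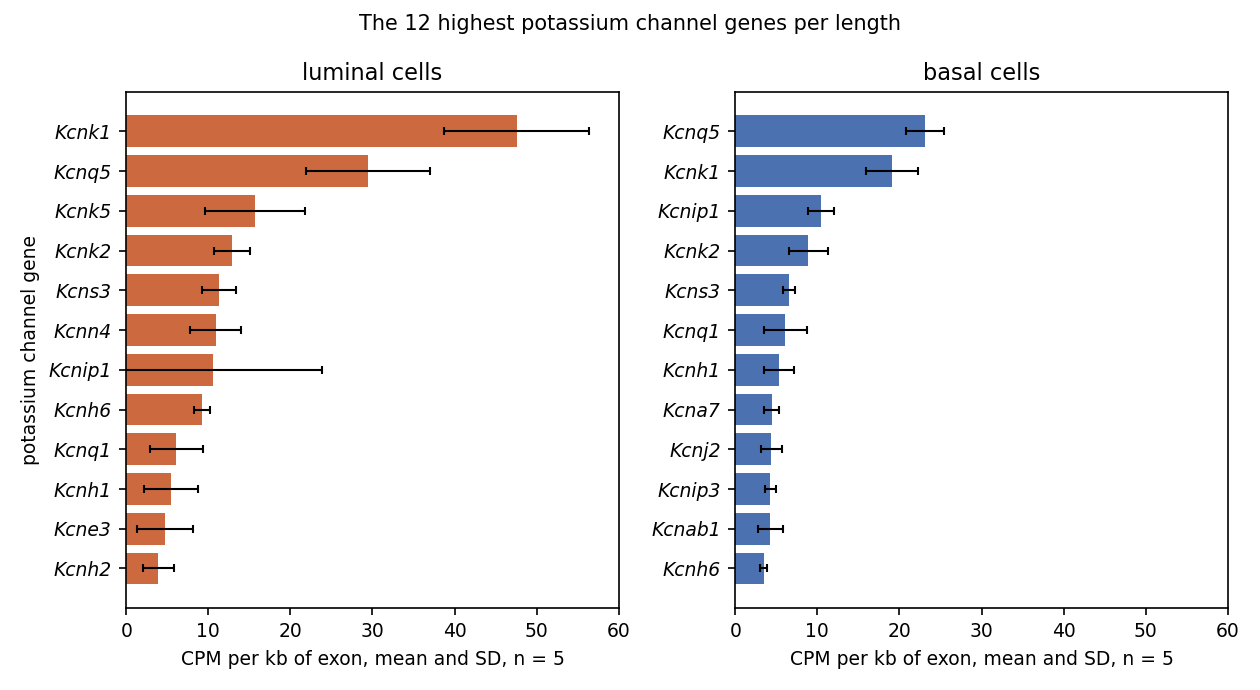
Mean length-scaled level (horizontal axis, CPM per kb of exon, error bars SD, n = 5) of the 12 highest potassium channel genes in luminal cells (left) and basal cells (right). Kcnk1 at 47.6 has the highest mean in luminal cells and Kcnq5 at 23.1 in basal cells, each with a range that overlaps the next gene's, and Kcnip1 in luminal cells has an SD larger than its mean.

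Kcnip1, a calcium-binding partner of Kv4 channels, was decided by 1 library. Its luminal values were 17.2, 9.59, 5.40, 84.6 and 14.7 CPM and its basal values 25.1, 26.5, 31.1, 25.7 and 20.2 CPM. Luminal replicate 4 was above every basal library and the other 4 luminal libraries were below every basal library. The log2 difference was 0.03 with all libraries (adjusted p = 0.97) and -1.13 without luminal replicate 4 (adjusted p = 0.00258). The alternatives for this gene ran from -1.13 to 0.27, with adjusted p from 0.00258 upward.

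The remaining members were not called or not tested. Tested genes without a call included Kcnk4, Kcns1, Kcnab2, Kcnd1, Kcnn2 and Kcnip4, beside Kcnh1, Kcnq1, Kcnq5 and Kcnip1 above, although Kcnip4 was called without luminal replicate 5. Of the 55 members not tested, 10 had no count in any library and 3 had a mean of at least 1 CPM in a cell type, namely Kcnd2, Kcnk16 and Kcnu1. All 3 were called toward luminal cells when no filter was applied (adjusted p = 0.0104, 0.00164 and 0.0193), and Kcnd2 also in 6 fits that left out 1 library. Kcnd2, a Kv4 pore, had 0.563, 0.895, 1.59, 4.89 and 1.14 CPM in luminal and at most 0.5002 CPM in basal libraries. Kcnk16, a K2P channel of the pancreas, had 93 luminal counts and 1 basal count (ratio 88.5, 95% counting interval 15.5 to 3530), most of them in luminal replicate 2 at 3.48 CPM. Reads of Kcnk1, Kcnk2, Kcnj15, Kcnn1, Kcnq1 and Kcnq5 may include some from the opposite strand, where other transcripts face 121 to 604 of their exon bases. Depth limits statements on the rest, since 3 counts correspond to 0.158 to 0.232 CPM in a library.

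Promoter sequence was compared as a description, using the RefSeq windows of 300 bases (GRCm38.p6) that were at hand for 68 of the 93 members. Members called toward luminal cells had a median of 14.5 CG dinucleotides in 18 windows of 12 genes. Members called toward basal cells had a median of 7 in 13 windows of 9 genes, against 7 over all windows. A gene with several windows was counted more than once. The ranges of 2 to 36 and 1 to 41 overlapped almost entirely. The following 100 bases before the outermost start, with CG in capitals, are shown for 2 basal-called rectifiers and 2 luminal-called genes to set beside Kcnmb1 and Lrrc26 above.
Kcnj2 (chr11:111066064-111066163, plus strand): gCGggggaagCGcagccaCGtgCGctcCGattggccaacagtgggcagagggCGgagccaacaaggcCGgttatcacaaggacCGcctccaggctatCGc
Kcnj8 (chr6:142571615-142571714, minus strand): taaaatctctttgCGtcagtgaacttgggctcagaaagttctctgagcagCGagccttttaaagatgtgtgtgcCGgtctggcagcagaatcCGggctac
Kcnk5 (chr14:20181783-20181882, minus strand): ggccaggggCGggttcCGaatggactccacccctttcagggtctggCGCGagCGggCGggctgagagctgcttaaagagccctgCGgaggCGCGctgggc
Kcnh7 (chr2:63184288-63184387, minus strand): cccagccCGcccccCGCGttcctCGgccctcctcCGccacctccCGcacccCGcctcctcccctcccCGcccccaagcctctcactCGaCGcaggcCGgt
Kcnj2 held 18 CG in its whole window, Kcnj8 9, Kcnk5 26 and Kcnh7 21. Among these examples the basal-called Kcnj2 was CG-rich and the luminal-called Lrrc26 was CG-poor. They were chosen by hand and Lrrc26 is not a member, so they say nothing about the family's CG content.

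Some motifs of the factors that the study followed were searched in the same windows on both strands. For TRPS1 these were GATA letters only. In luminal cells the paper found C2H2 zinc finger motifs enriched where TRPS1 bound, and such motifs were not searched. The CArG box of SRF (CC, then 6 bases of A or T, then GG) was in none of the 93 member windows and in 1.63% of all windows. The GATA letters AGATAA were in 4.3% of member windows against 11.2% of all, and the TEAD letters GGAATG in 15.1% against 14.7%. Among called members, AGATAA was found in the basal-called Kcnip3 and in the luminal-called Kcnj15, and GGAATG in 4 luminal-called genes. These sites are printed with 10 bases on either side, the motif in capitals as read along the gene, where CATTCC is the TEAD motif on the other strand.
Kcnip3 (chr2:127521457-127521482, gene on the minus strand): aggaggggggAGATAAgagggggagg
Kcnj15 (chr16:95257543-95257568, gene on the plus strand): tccttaagaaAGATAAtctgtttgtt
Kcnk1 (chr8:125995060-125995085, gene on the plus strand): ttaatcaggaGGAATGcctgggggga
Kcnk2 (chr1:189402347-189402372, gene on the minus strand): ttgagcagcaCATTCCgcttgcacag
Kcnn4 (chr7:24370190-24370215, gene on the plus strand): gtcttagaagGGAATGggatagccag
Kcns3 (chr12:11151026-11151051, gene on the minus strand): ctccctctccCATTCCgagctttcca
Counted from the start of the window that held them, the GATA matches begin 80 bases before in Kcnip3 and 5 before in Kcnj15. The TEAD matches begin 32 bases before in Kcnk1, 89 in Kcnk2, 63 in Kcnn4 and 199 in Kcns3. Only the Kcnj15 window has the outermost RefSeq start. The sites of Kcnip3, Kcnk1, Kcnk2, Kcnn4 and Kcns3 lie inside the span of their gene, before an internal start. A match describes the letters of this window only.

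The pumps and cotransporters that supply potassium to these channels differed as well. The sodium-potassium pump exchanges cell sodium for potassium, and of its 15 alpha, beta and FXYD subunit genes, 5 were higher in luminal cells, 2 were higher in basal cells, 1 was not called and 7 were not tested, beside 33.6% and 31.2% of all genes tested. The beta subunits changed places, with Atp1b1 higher in luminal cells (102 ± 21.5 against 10.4 ± 1.5 CPM, SD, n = 5, log2 fold change 3.29, adjusted p = 1.61e-09) and Atp1b3 higher in basal cells (105 ± 20.9 against 46.6 ± 17.0 CPM, log2 fold change -1.17, adjusted p = 0.000381). Among the FXYD regulators of the pump, Fxyd2 had 100.2 to 364 CPM in luminal and at most 0.539 CPM in basal libraries, a ratio of 793 (95% counting interval 488 to 1390, adjusted p = 4.22e-09), at a log2 fold change of 9.67 that was 10.5 without basal replicate 5. Fxyd3 (log2 fold change 0.72) and Fxyd4 (1.68) were also called toward luminal cells, the latter not with the replicate block (adjusted p = 0.0686) nor without luminal replicate 2 or 3 or basal replicate 1.

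Of the 15 cation-chloride cotransporters and their kinases, 7 were higher in luminal cells, 3 were higher in basal cells and 2 were not called, beside the same 33.6% and 31.2% of all genes. Slc12a2, which loads secretory cells with sodium, potassium and chloride, had 3135, 1707, 2494, 2357 and 3492 CPM in luminal libraries and 40.8, 30.8, 32.3, 39.8 and 37.8 CPM in basal ones. The groups were far apart (log2 fold change 6.18 ± 0.25 (SE), adjusted p = 1.4e-10). The potassium-chloride exporters went the other way, with Slc12a4 at 82.2 ± 9.02 CPM in basal and 17.1 ± 2.59 CPM in luminal libraries (SD, n = 5, log2 fold change -2.26, adjusted p = 1.11e-08) and Slc12a7 at a log2 fold change of -0.84 (adjusted p = 0.0106). The regulatory kinases Wnk4 (1.99), Wnk2 (1.26) and Stk39 (0.84) were higher in luminal cells, and Oxsr1 (-1.13), a close relative of Stk39, was higher in basal cells. The 3 proton-potassium pump genes were not tested, with summed levels of at most 0.873 CPM.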

How the data were processed

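Gene counts were deposited by the authors as raw counts per Entrez gene, with no normalization. Per the labels, poly(A) RNA of sorted cells was prepared with a NEBNext Ultra II kit that does not mark strand. The paper's methods instead name a NEBNext Ultra kit, or a low-input kit for few cells. Libraries were sequenced from 1 end and trimmed with cutadapt. Reads were aligned to mm10 with Bowtie2, which does not splice reads across introns and so can lose reads over exon junctions. The submitters' processing notes list cutadapt 4.2, Bowtie2 2.3.5.1 and the builds mm10 and hg19. The counting tool and annotation are not given in the sources used here. The methods describe triplicates, whereas 5 libraries per cell type were used here.

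Symbols were assigned to 24570 of 24594 Entrez identifiers through RefSeq (GRCm38.p6), and 5 Kcn symbols fell outside the rule for members. Exon lengths came from GENCODE M21 (93 of 93 members). Members and lists were chosen with earlier results of these data known. Genes passing filterByExpr (minimum count 10, minimum total count 15) were tested for luminal against basal cells with edgeR 4.0.16 (TMM factors, quasi-likelihood test) in R 4.3.3, with Benjamini-Hochberg adjustment and a threshold of 0.05, and the procedure was tested on simulated data with 200 changed genes. CPM were computed with TMM-scaled totals. Named genes were Kcnmb1 and Kcnma1, called members averaging 1 CPM or more in the higher cell type (up to 14 per direction), the 6 highest members per length in each cell type, and up to 4 genes per transport list and direction. Other members named singly, such as Kcnh1, Kcnn2, Kcnd2 and Kcnk16, were chosen after their values were seen.

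A luminal and a basal library with the same number also have in common the number that opens their descriptions. It may stand for an animal, but the labels do not say so. Correlations of their deviations were -0.13, 0.11, -0.07, 0.25 and 0.06, and the replicate block was kept as an alternative. Further alternatives were other scalings, other count filters, DESeq2 1.42.0, limma voom 3.58.1, a test against a 2-fold change, and leaving out each library. Counting intervals cover counting error only. Promoter sequences were those of RefSeq. Protein sequences were not analysed here, and some genes of the family and lists are not reported here by name.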

Additional observations from a re-analysis of the deposited data

Results flagged for a closer look

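Within each group of 5 libraries, the highest and lowest value of each named gene was compared with its neighbors by Dixon's test at 95%, and 18 of 108 groups had a library that stood apart, where chance gives about 1 in 20 for values with a normal spread. These values need not have one, and 3 of the 18 groups (Kcna6, Kcnj8 and Rgs5 in luminal cells) had counts in 1 library alone, which meets the test by construction, so that the number of groups was not compared with chance. No cause was tested.

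Among potassium channels of luminal libraries, replicate 3 stood apart for Kcne3 at 18.5 CPM, with the others at 4.32 to 6.27 CPM, and for Kcnj8 at 0.491 CPM, with the others at 0. Replicate 4 stood apart for Kcnip1 at 84.6 CPM, with the others at 5.40 to 17.2 CPM, and for Kcnj4 at 1.15 CPM. Replicate 5 was the only luminal library with Kcna6, at 0.571 CPM. In the same luminal replicate 3, Rgs5 was at 0.797 CPM with the others at 0.

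Among basal libraries, replicate 3 was high for Kcne3 at 0.464 CPM and for Kcnk1 at 55.0 CPM, where the others were at 37.9 to 41.5 CPM. Replicate 4 was high for Kcnk2 at 55.5 CPM, with the others at 32.4 to 33.6 CPM, and for Kcnj15 at 0.625 CPM. It was low for Ano6 at 268 CPM, with the others at 409 to 458 CPM. Replicate 1 was high for Kcnj8 at 4.49 CPM and for Oxsr1 at 107 CPM, and low for Best1 at 0.748 CPM, with the others at 1.86 to 2.0 CPM. Replicate 5 was high for Fxyd2 at 0.539 CPM, Atp1b1 at 12.9 CPM and Cspg4 at 5.81 CPM, and replicate 2 was high for Slc12a4 at 97.9 CPM.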

How the results depend on the processing

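The counts of 17 luminal and 10 basal calls, and of 15 and 9 calls of at least 2-fold, stayed within 1.5 times under the other scalings, DESeq2, limma voom and the leave-one-out fits. The filter decided more. With at least 10 counts in every library, which leaves 14 members and removes those absent from a cell type, there were 6 luminal and 2 basal calls (all 12127 genes tested, 34.5% and 30.6%), and 4 and 1 of at least 2-fold (18.7% and 15.8%). Without a filter, 14 members were at least 2-fold higher in basal cells (16.3% of all 20612 genes), and 9 members that the filter leaves out were called in either direction. A test against a 2-fold change gave 14 luminal and 7 basal calls (13.1% and 13.7% of all genes). With the replicate block (a paired fit) there were 16 luminal and 11 basal calls. Of 977 alternative values of 56 single genes, 943 kept direction and call, 17 lost the call, 3 gained it and 14 changed sign. Sign changes concerned Kcnip1 and Kcnq1, both near 0. Kcnip1 was at -0.00577 with DESeq2 size factors, -0.0361 without a filter, -0.716 with limma voom and -0.663 with the replicate block, and leaving out a library gave -1.13 to 0.266. Kcnq1 was at 0.132 with upper-quartile scaling, 0.179 when scaled by totals alone and 0.0101 with the stricter filter, and leaving out a library gave -0.368 to 0.208. Calls were lost in some alternatives for genes that include Kcnj4, Kcnk2 and Fxyd4. Upper-quartile factors and library totals moved the median of all genes by 0.12 and 0.19 toward luminal cells. The causes were not tested. Depth limits members near 1 count.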

Other observations

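Chloride channels that work beside potassium channels in secretion were examined as a list of 8 genes, of which 2 were higher in luminal cells, 2 were higher in basal cells, 1 was not called and 3 were not tested, beside 33.6% and 31.2% of all genes tested. Ano1, the calcium-activated chloride channel of secretory epithelia, was at 441 ± 108 CPM in luminal and 181 ± 32.3 CPM in basal libraries (SD, n = 5, log2 fold change 1.28, adjusted p = 3.29e-05, edgeR's quasi-likelihood test with Benjamini-Hochberg adjustment). Clca1, a secreted regulator of such channels with close paralogs whose reads may be shared, had 105, 186, 63.7, 43.8 and 75.4 CPM in luminal libraries and no count in any basal library, at least 2070-fold higher by the lower 95% counting limit and 2540-fold above the floor of 3 counts over the basal group. Ano6, a channel and lipid scramblase, was higher in basal cells at 401 ± 76.3 against 214 ± 30.3 CPM (log2 fold change -0.91), as was Best1 at 1.67 ± 0.521 against 0.359 ± 0.311 CPM (log2 fold change -2.23). Cftr was not tested, with a luminal mean of 0.404 CPM.

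The pacemaker and cyclic nucleotide gated channels are relatives of the potassium channels that pass sodium as well. Of 10 such genes, 1 was higher in each cell type, 3 were not called and 5 were not tested, beside the same shares of all genes. Hcn4, the pacemaker channel of the heart, had 2.56, 7.03, 4.02, 5.94 and 2.94 CPM in basal libraries and 1 count in the 5 luminal libraries together (ratio 357, 95% counting interval 63.7 to 14100, adjusted p = 2.63e-07). Its fitted log2 fold change was -7.78, and -9.14 without luminal replicate 3, which held that count. Cngb1, a modulatory subunit of cyclic nucleotide gated channels, was at 3.12 ± 1.36 CPM in luminal and 0.458 ± 0.506 CPM in basal libraries (log2 fold change 2.74, adjusted p = 0.00288, and 3.66 without basal replicate 4).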
